A study of Homo sapiens with 10 samples.

Results

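The HOX cluster genes described here are 38 protein-coding genes whose symbols are HOXA, HOXB, HOXC or HOXD followed by a number. They were chosen by symbol from GENCODE on GRCh38, and the rule used no measured value. They are 38 of 19973 protein-coding genes with a canonical start, and their 4 clusters, taken from the first to the last gene with 10 kb on each side, hold 3241 of the 12921589 nucleosome positions in the list. HOXA and HOXB each contributed 10 genes, and HOXC and HOXD each contributed 9.

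The line PB010.5 was used, human induced pluripotent stem cells with a FUCCI reporter of the cell cycle, grown without feeder cells or any further treatment. Permeabilized cells were digested for 5 min at 37 °C with micrococcal nuclease (MNase), which cuts linker DNA, in 5 amounts from 0.5 U through 1, 3 and 6 U to 10 U, and digested DNA of the yeast strain BY4742 was added to the purified DNA as a spike-in. There was 1 library per concentration, sequenced with 150-bp and again with 50-bp paired-end reads. The positions were called on pooled libraries. The methods state that the runs with the shorter reads were not taken further, and the list itself names no runs. No expression was measured, so the labelled cell type could not be checked and no level of a HOX transcript is available.

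HOX genes encode homeodomain transcription factors that give cells along the head to tail axis their regional identity. Vertebrates carry them in several clusters made by duplication, so that genes of the same number in different clusters are paralogues, and within a cluster the low numbers act toward the head and the high numbers toward the tail and the limb tips. In pluripotent stem cells these clusters are known as broad domains of repressive Polycomb chromatin that also carry marks of activity, and they are rich in CpG islands. Histone marks were not measured in the data described here.

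Each called position is an interval of 140 bp with a score, a height that is never negative and that the authors' workflow assigned. How scores were scaled is not given and the list holds no read counts, so how many reads a score stands for is unknown and no counting error can be given. The median score of the list was 14.8, the lower and upper quartiles were 9.87 and 19.7, scores moved in steps of 1.23, and neighbouring midpoints lay a median of 180 bp apart. Scores rose with GC content, so a percentile at equal GC is given beside scores: the rank of a position among all positions whose DNA has the same GC content over the length of a nucleosome, in bins of 1 percentage point. A single pooled list has no replicates, so nothing was tested and the values are descriptions. Genes and positions are not replicates.

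The start with the widest gap between called positions and 2 of the starts with the narrowest gaps are shown first, as their upstream sequence makes the measurement visible. The midpoint gap is the distance between the last midpoint upstream and the nearest midpoint downstream of the canonical start. The 200 bases just upstream of the start are given 5′ to 3′ on the strand of the gene from hg38, and capitals mark bases inside a called position.
HOXD4 (gap 420 bp, chr2:176151350-176151549, + strand): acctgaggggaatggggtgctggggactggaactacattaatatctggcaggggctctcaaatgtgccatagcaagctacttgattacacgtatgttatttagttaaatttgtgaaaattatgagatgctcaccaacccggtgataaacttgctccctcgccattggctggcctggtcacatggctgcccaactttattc
HOXD10 (gap 100 bp, chr2:176116578-176116777, + strand): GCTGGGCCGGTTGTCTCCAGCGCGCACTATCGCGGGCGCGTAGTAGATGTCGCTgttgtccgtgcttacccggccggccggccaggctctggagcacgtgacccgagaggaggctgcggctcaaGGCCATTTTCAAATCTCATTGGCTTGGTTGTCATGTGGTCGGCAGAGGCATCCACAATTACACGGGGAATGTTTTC
HOXD9 (gap 120 bp, chr2:176122519-176122718, + strand): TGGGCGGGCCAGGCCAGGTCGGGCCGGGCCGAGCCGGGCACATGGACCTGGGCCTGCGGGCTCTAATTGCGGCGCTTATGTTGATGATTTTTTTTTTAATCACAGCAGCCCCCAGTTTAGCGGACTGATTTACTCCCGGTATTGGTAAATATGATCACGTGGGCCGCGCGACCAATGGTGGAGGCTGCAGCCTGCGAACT
Upstream of HOXD4, 0 of these 200 bases lay in a called position. Upstream of HOXD10 there were 130 such bases, and upstream of HOXD9 all 200. The upstream sequence of HOXA7, which shares the narrowest gap of 100 bp, is not printed because 79 of its bases belong to an untranslated region of an annotated transcript. The printed windows held between 3 CpG (HOXD4) and 17 CpG (HOXD10). Over all HOX starts the upstream 200 bp held a median of 12 CpG (range 3 to 27), and over all protein-coding genes the median was 15. The letters TATAAA, searched on both strands, were in this window of 6 of 38 HOX genes (HOXA3, HOXA9, HOXA10, HOXB7, HOXC5 and HOXD13), or 15.8%, and in 7.8% of the windows of all genes.

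HOXD4, which acts in the hindbrain and the neck vertebrae, had the widest gap. Its canonical start is at chr2:176151550, and midpoints lay 318 bp upstream with a score of 25.9, outside the gene, and 102 bp downstream with a score of 19.7, over 52 bases of 5′ UTR and 88 bases of coding sequence. HOXB7, a gene of the trunk, followed with a gap of 400 bp. The positions that bounded this gap had scores of only 8.64 upstream and 11.1 downstream, both below the median of the list. HOXB13, expressed in the tail region and the prostate, had a gap of 390 bp, between midpoints 312 bp upstream (score 18.5) and 78 bp downstream (score 17.3), where the position lay wholly in the 5′ UTR.

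The narrowest gaps were at HOXA7 and HOXD10, with 100 bp each, and at HOXD9 with 120 bp. In all 3 the nearest upstream midpoint was so close that its position covered the start itself. HOXA7, a trunk gene with its start at chr7:27156675, had midpoints 7 bp upstream (score 12.3) and 93 bp downstream (score 13.6). HOXD10, which patterns the lumbar spinal cord and the limb, had midpoints 6 bp upstream (score 16.0) and 94 bp downstream (score 7.40) of chr2:176116778. HOXD9 had midpoints 37 bp upstream (score 19.7) and 83 bp downstream (score 27.1) of chr2:176122719. At these 3 genes the midpoints were closer than the 140 bp of an interval, so the called positions on either side of the start overlapped.

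Over all 38 genes the median gap was 235 bp (SD over genes 89.2, range 100 to 420), beside 230 bp over all protein-coding genes. A gap of 300 bp or more was present at 11 of 38 HOX starts, or 28.9%, and at 30.5% of all genes, so the share was near the background. The clusters divided unevenly. Such gaps were at 6 of 10 HOXB starts (HOXB2, HOXB3, HOXB4, HOXB6, HOXB7 and HOXB13), at 1 of 10 HOXA starts (HOXA4), at 2 of 9 HOXC starts (HOXC8 and HOXC10) and at 2 of 9 HOXD starts (HOXD1 and HOXD4). The median gap was 190 bp in HOXA, 300 bp in HOXB, 240 bp in HOXC and 230 bp in HOXD.

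**Figure D1:**
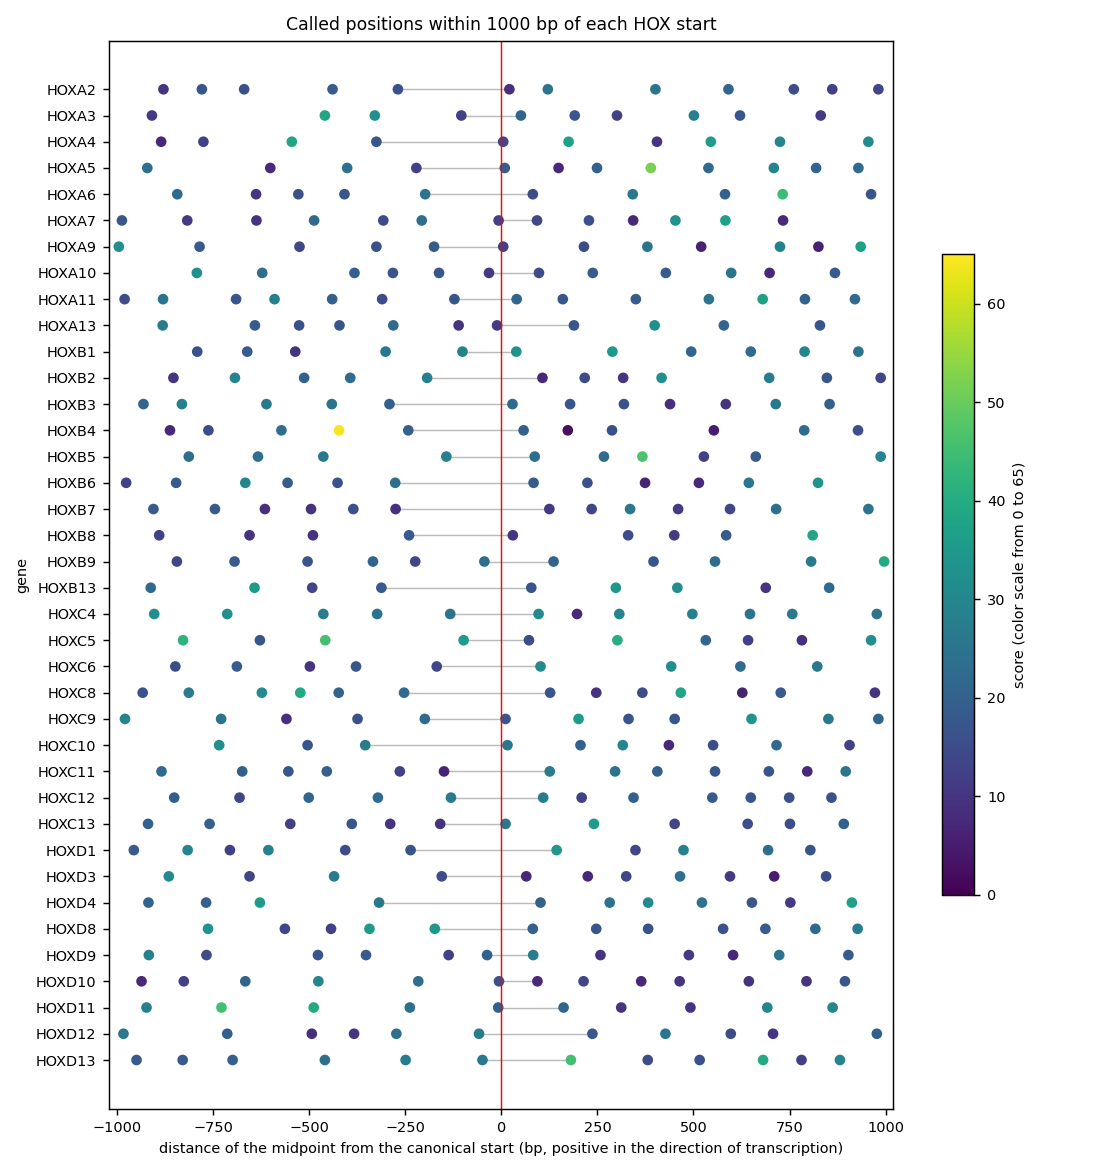
Called midpoints within 1000 bp of the canonical start of each of the 38 HOX genes, in bp from the start with transcription to the right. Each point is a position colored by score, the red line is the start and the grey bar is the midpoint gap, from 100 bp at HOXA7 and HOXD10 to 420 bp at HOXD4.

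The canonical start lay inside a called position in 23 of 38 HOX genes, or 60.5%. The share of all protein-coding genes was 49.9%, and 47.8% after weighting these to the GC deciles of the HOX starts. Other developmental regulators, the PAX, TBX, LHX and NKX genes, stood higher than HOX at 27 of 42 (64.3%). Forkhead genes were at 23 of 45 (51.1%) and cytosolic ribosomal protein genes at 26 of 77 (33.8%). Among the HOX clusters, HOXA stood highest, with 9 of 10 starts inside a position, HOXA6 being the exception. Without HOXA the share of HOX starts was 50%, near that of all genes. The counts were 5 of 10 in HOXB, 3 of 9 in HOXC (HOXC9, HOXC10 and HOXC13) and 6 of 9 in HOXD. By paralogue number, the start was inside a position in 5 of 7 genes numbered 1 to 3, in 5 of 15 numbered 4 to 8 and in 13 of 16 numbered 9 to 13. The 3 posterior exceptions were HOXB13, HOXC11 and HOXC12. The median gap was 290 bp for numbers 1 to 3, 270 bp for 4 to 8 and 190 bp for 9 to 13. Across the 38 genes Spearman's rho between number and gap was -0.22. The number and GC content also moved together, with a rho of 0.35, and the part of GC content in the gap was not tested. Neighbouring genes share sequence and history, so these counts describe the genes and are not independent observations.

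HOX starts carried many called positions. The number of midpoints within 1000 bp had a median of 12 (SD 1.24, range 9 to 14) over the HOX genes and of 10 over all genes. Of the HOX genes, 20 of 38 had 12 or more, which is 52.6%, beside 20.4% of all genes and 21.2% at the GC deciles of HOX. HOXA11, which patterns the forearm and the uterus, had the most with 14 midpoints spaced a median of 140 bp apart. HOXA7, HOXB7, HOXC8, HOXC11 and HOXD10 each had 13, and HOXB8, HOXB13 and HOXC6 had the fewest with 9. The clusters gave 6 of 10 genes in HOXA, 4 of 10 in HOXB, 6 of 9 in HOXC and 4 of 9 in HOXD. Other developmental regulators, the PAX, TBX, LHX and NKX genes, reached 12 midpoints in 12 of 42 genes (28.6%), forkhead genes in 7 of 45 (15.6%) and cytosolic ribosomal protein genes in 7 of 77 (9.09%). The threshold of 12 was chosen after values were seen. The closest 2 canonical HOX starts, those of HOXB3 and HOXB5, were 3538 bp apart, so no window shared a position with another. Taken at the 5′-most start of each gene, the count was 16 of 38 (42.1%), beside 20.2% of all genes. There windows can overlap, as at HOXB3 (chr17:48604912) and HOXB6 (chr17:48604992), so the same positions can count for more than 1 gene.

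Mean profiles showed where these additional positions lay. From 500 to 1000 bp downstream of the start, 79.8% of HOX genes on average had the base inside a called position, beside 68.1% for all genes weighted to the same GC deciles, 71.2% for PAX, TBX, LHX and NKX genes and 60.8% for ribosomal protein genes. From 1000 to 500 bp upstream the values were 74.0% for HOX and 66.6% at equal GC. Just upstream of the start the order turned: from 200 to 1 bp upstream the averages were 52.2% for HOX and 57.0% at equal GC. At 80 bp upstream 36.8% of HOX genes were covered, beside 54.2% at equal GC. That place was picked as the lowest of the HOX curve, and the curve at equal GC was lowest at the start. At the start itself HOX was again the higher, with 60.5% beside 47.8%, and from the start to 200 bp downstream the averages were 77.7% and 69.4%.

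**Figure D2:**
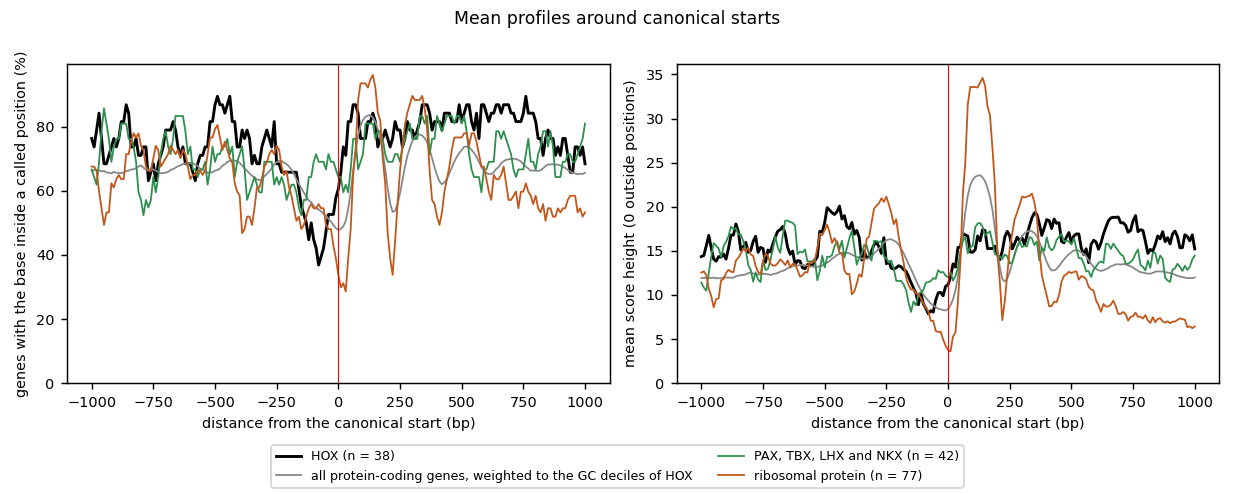
Share of genes with a base inside a called position (left, %) and mean score height with 0 outside positions (right), against bp from the canonical start, for HOX, for all genes weighted to their GC deciles, and for 2 comparison families. The HOX line dips to 36.8% at 80 bp upstream, has no tall peak downstream (17.4, beside 34.6 for ribosomal protein genes) and averages 79.8% covered from 500 to 1000 bp.

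The downstream position, the first with its midpoint at or past the canonical start, scored lower at HOX genes than over all genes. It can cover the start itself and then need not be the +1 nucleosome, the name commonly given to the first position downstream. At HOXA4 it lay 5 bp away (score 13.6), and the next, 175 bp away, had a score of 37.0. At HOXA5 the order was the other way, with 19.7 at 9 bp and 7.40 at 149 bp. In the mean profile the score height within 300 bp downstream peaked at 17.4 for HOX (at 140 bp), at 18.2 for PAX, TBX, LHX and NKX genes, at 23.6 for all genes at equal GC and at 34.6 for ribosomal protein genes. Per gene, the downstream midpoint lay a median of 83.5 bp from the HOX start (SD 55.4) with a score of 19.7 (SD 8.34), and 113 bp away with a score of 22.2 over all genes. A downstream score above that of 90% of the positions on the same chromosome was found at 8 of 38 HOX genes, or 21.1%. The share was 36.7% for all genes, 42.1% at the GC deciles of HOX and 74.0% for ribosomal protein genes (57 of 77). PAX, TBX, LHX and NKX genes, at 12 of 42 (28.6%), and forkhead genes, at 13 of 45 (28.9%), were also below all genes. The 8 HOX genes were HOXB1, HOXC4, HOXC6, HOXC11, HOXC12, HOXD1, HOXD9 and HOXD13. HOXC10 and HOXC13, at 89.5% each, were just outside.

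HOXD13, the gene of the digits, had the highest downstream score of the family, 45.7 at 181 bp, above 99.8% of the positions of chromosome 2. The 2 genes numbered 1, HOXB1 of the hindbrain and HOXD1, followed HOXD13 with 33.3 at 39 bp and 34.5 at 144 bp. The lowest downstream scores were 7.40 at HOXB2, HOXD3 and HOXD10, and 8.64 at HOXA2, which patterns the hindbrain and the middle ear. No HOXA start of 10 passed the 90% level, where 1 of 10 HOXB, 4 of 9 HOXC and 3 of 9 HOXD starts did. In HOXA, 9 of 10 starts lay inside a position, and the part of this in the downstream scores was not tested. The comparison of HOX with all genes depended on which start was used. With the 5′-most start of each gene, 15 of 38 HOX genes (39.5%) passed, beside 33.3% of all genes. The lower share therefore holds only for canonical starts, and 5′-most starts that lie close together can share a downstream position.

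**Figure D3:**
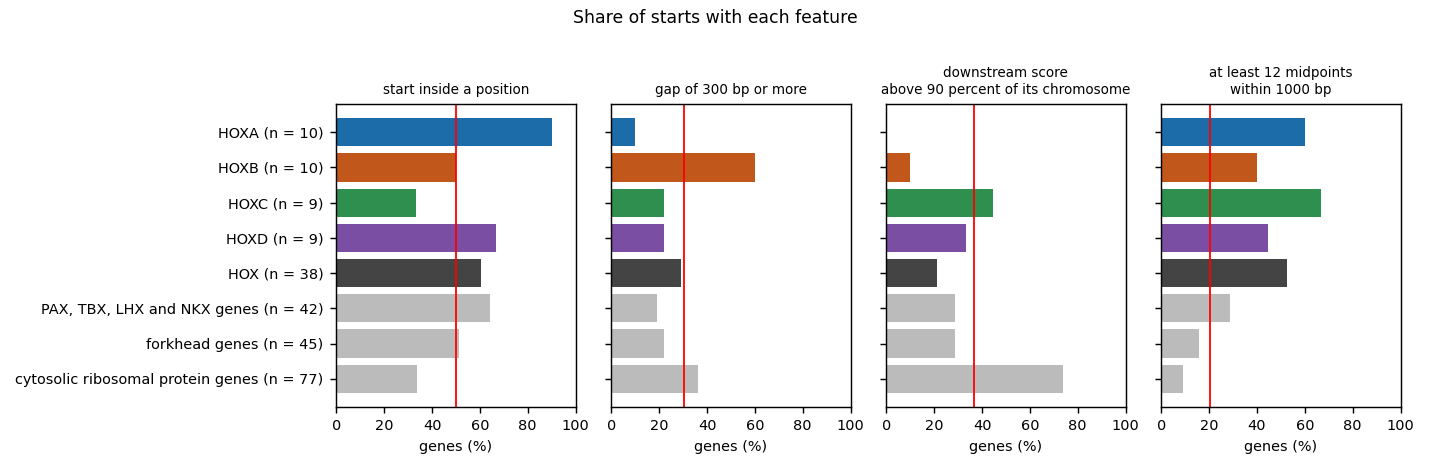
Share of starts (%) with each of 4 features, by HOX cluster, for all 38 HOX genes and for 3 comparison families, with n in the labels. The red line is the share of all protein-coding genes (49.9%, 30.5%, 36.7% and 20.4% from left to right), and HOX stands furthest from it for 12 or more midpoints, at 52.6%.

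Mean scores within 1000 bp of the start differed less between families than the downstream scores did. The median over HOX genes was 20.3 (SD 3.16, range 14.2 to 27.0), and the median over all genes was 19.5. With each gene ranked in its own GC decile, the median percentile of the HOX genes was 53.8 (SD 25.4, range 7.10 to 97.2). This median percentile was below 50 under 3 alternatives. It was 38.1 with a window of 500 bp, 42.7 with scores divided by the median of their chromosome, and 43.4 with only positions at or above the median score. Only 3 of 38 HOX genes, HOXC4, HOXC5 and HOXD11, were above 90% of their decile, or 7.89%, beside 9.71% of all genes. In the 38 genes, Spearman's rho between the number of midpoints and their mean score was -0.37, and over all genes it was 0.10. This is a correlation across genes, which are not independent.

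In HOXA, HOXA4 of the neck vertebrae had the highest mean score, 23.2 over 10 positions that ranged from 7.40 to 38.2, and HOXA2 the lowest, 16.5 over 12 positions from 8.64 to 24.7. Both starts lay inside the downstream position, at 5 bp from its midpoint for HOXA4 (chr7:27130757) and 21 bp for HOXA2 (chr7:27102683). The next midpoint upstream was 325 bp away at HOXA4, with a score of 17.3, and 269 bp away at HOXA2, with a score of 16.0. These were the gaps of 330 bp and 290 bp, the widest of the cluster.

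In HOXB, HOXB5 had the highest mean score, 25.4 over 10 positions, and HOXB7 the lowest, 15.7 over 13 positions. At HOXB5 (chr17:48593779) the positions nearest the start had scores of 28.4 at 143 bp upstream and 23.4 at 87 bp downstream, and the highest score, 46.9, was 367 bp downstream. At HOXB7 the 13 scores ran from 8.64 to 25.9, and the ranges of these 2 genes therefore overlapped. Scores on chromosome 17 had a median of 17.3 and those on chromosomes 2, 7 and 12 a median of 14.8 each.

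In HOXC, HOXC5, a gene of the neck and upper trunk, had the highest mean score of all 38 members, 27.0 over 10 positions from 8.64 to 45.7. Its highest position was 458 bp upstream of chr12:54033050, and its 4 highest scores were at 828, 458 and 98 bp upstream (41.9, 45.7 and 35.8) and at 302 bp downstream (40.7). HOXC13, which acts in hair and nails, had the lowest of the cluster, 17.8 over 12 positions from 9.87 to 35.8. Its start at chr12:53938831 lay 11 bp from the midpoint of a position with a score of 25.9, and the position 159 bp upstream had a score of 9.87.

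In HOXD, HOXD11, a partner of HOXA11 in the forearm, had the highest mean score, 25.7 over 10 positions from 9.87 to 45.7, and its neighbour HOXD10 the lowest of all members, 14.2 over 13 positions from 7.40 to 29.6. At HOXD11 (chr2:176107280) the upstream side was the higher: scores were 28.4, 45.7, 39.5, 23.4 and 19.7 from 923 bp to 8 bp upstream, and 20.97, 9.87, 9.87, 29.6 and 29.6 from 162 bp to 862 bp downstream. At HOXD10 the first downstream score was 7.40, and the 7 downstream scores reached at most 17.3.

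Paralogues of the same number were alike in some groups and far apart in others. Mean scores of the 4 genes numbered 4 ran from 19.1 (HOXB4) to 26.0 (HOXC4), and those of the 4 numbered 13 from 17.8 (HOXC13) to 24.3 (HOXD13). The closest were the 2 genes numbered 12, HOXC12 and HOXD12, with 19.2 and 18.3, the 2 numbered 7, with 15.7 (HOXB7) and 17.4 (HOXA7), and the 3 numbered 6, from 18.8 (HOXB6) to 21.2 (HOXA6). Downstream scores were near each other in the pair numbered 1 (33.3 and 34.5) and in the pair numbered 2 (7.40 and 8.64). For gaps, the genes numbered 2, HOXA2 and HOXB2, had 290 and 300 bp, those numbered 7 had 100 bp (HOXA7) and 400 bp (HOXB7), and those numbered 10 had 100 bp (HOXD10), 130 bp (HOXA10) and 370 bp (HOXC10). Groups hold from 2 to 4 genes, and no likeness within them was tested.

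The genes that act with HOX proteins were taken from a list of cofactors of the PBX, MEIS and PKNOX families, which bind DNA together with HOX proteins. The start was inside a position in 4 of 9 cofactor genes (49.9% of all genes), 1 of 9 had 12 or more midpoints (20.4% of all genes), and 3 of 9 had a downstream score above 90% of the chromosome (36.7% of all genes). Of the 9 ParaHox and HOX-linked homeobox genes (CDX, GSX, PDX1, EVX and MNX1), 7 had the start inside a position, 4 had 12 or more midpoints and 6 had a downstream score above the 90% level. Both lists are short. The cofactor counts for the start and the downstream score were near the shares of all genes, and no share was compared by a test.

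Across the clusters as a whole, the 595350 bp held 5.44 positions per kb, with a median score of 17.3. Of the 3241 positions, 68.4% had a score at or above the median of the list. Scores move in steps and can tie at the median, and the same share over the whole list was not computed. The 68.4% is therefore not given as an excess. GC content was 51.8% on average, and at equal GC the median percentile was 51.2, near the middle of the list. It was 52.9 at equal GC and equal observed to expected CpG. Between 2.47 and 76.5, the scores put 11.05% of the positions in the top 10% of their GC bin and 8.58% in the bottom 10%. The median percentile was 47.9 in HOXA (chr7:27090354-27210091), 53.5 in HOXB (chr17:48518526-48738750), 53.6 in HOXC (chr12:53928831-54066030) and 48.9 in HOXD (chr2:176082721-176200907). Between clusters these values had an SD of 2.96, and the median percentiles of whole autosomes ranged from 46.9 to 53.5.

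**Figure D4:**
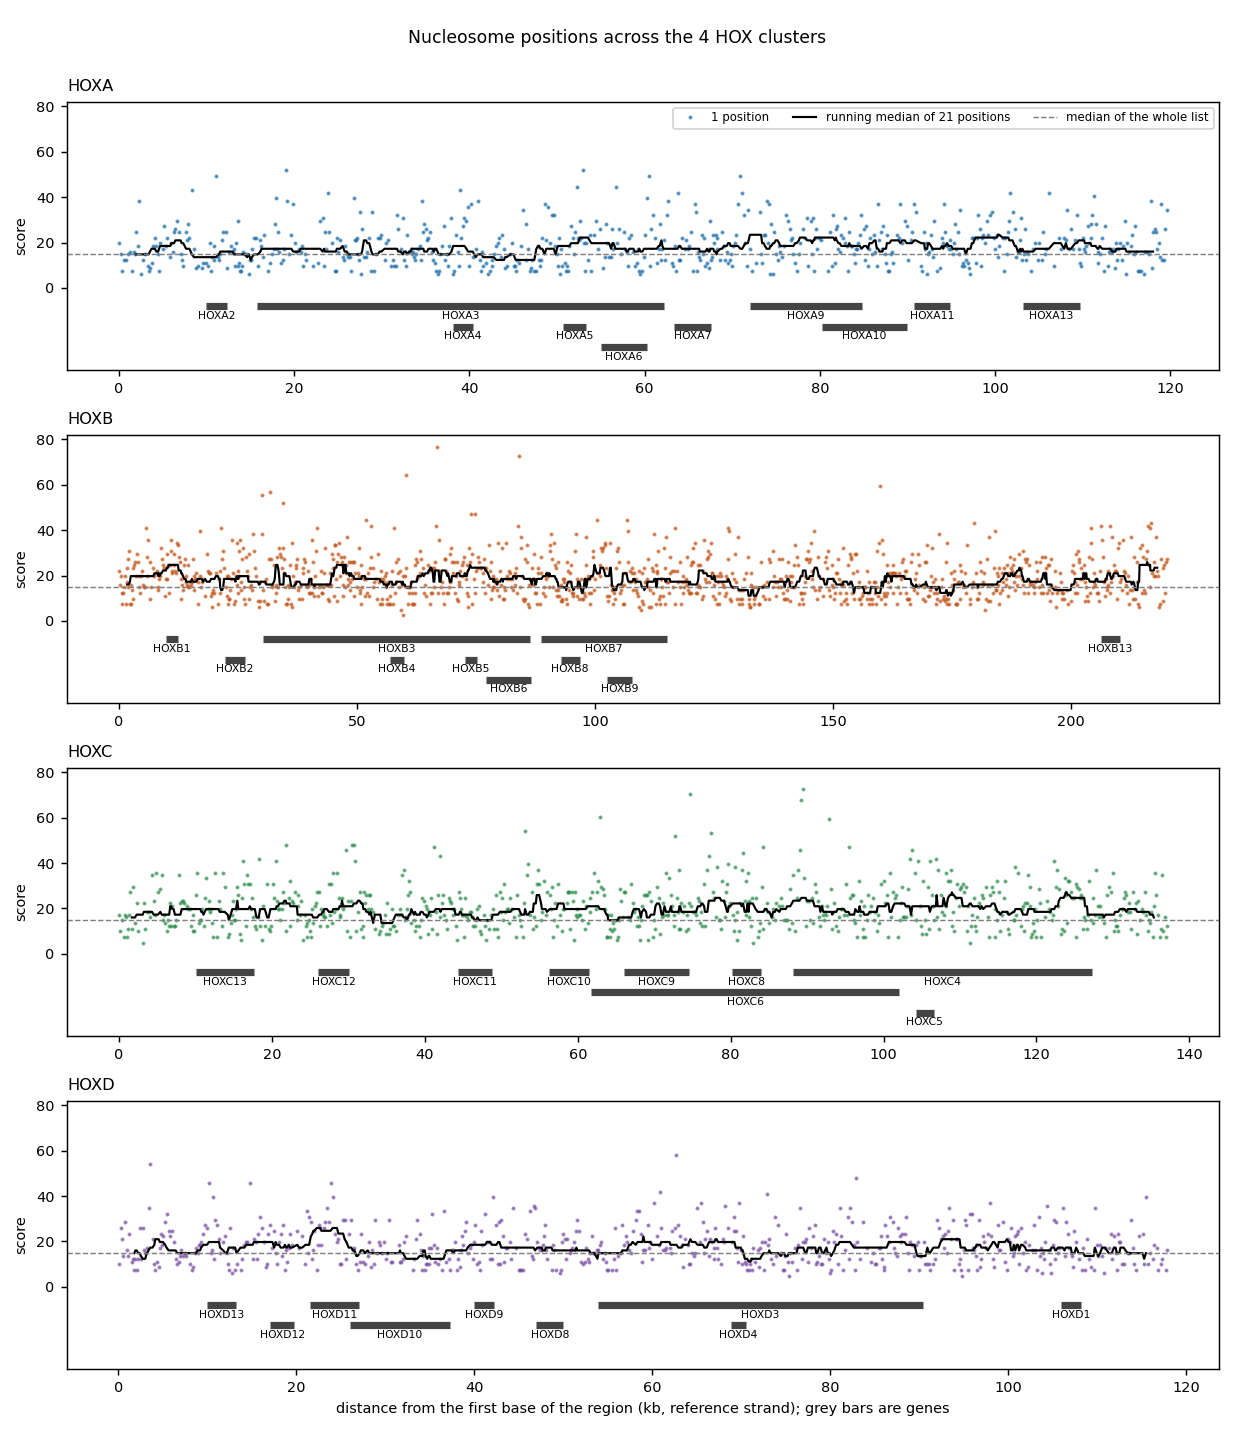
Score of every called position (colored points) along each HOX cluster, in kb from the first base of the region on the reference strand, with a running median over 21 positions (black), the median of the list (14.8, dashed) and the genes as grey bars. The longest distance between neighbouring midpoints is 800 bp, in HOXA, and the highest scores are in HOXB (76.5) and HOXC (72.8).

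Neighbouring midpoints lay a median of 170 bp apart in the clusters, beside 180 bp in the whole list. The mean was 184 bp (SD 75.1, 3237 distances), beside 199 bp over all positions with the same GC content around them. Values at equal GC used every distance of the list without an upper limit, including those across long stretches without calls. Such stretches can raise the 199 bp and the share of long distances at equal GC, and by how much was not tested. In fixed tiles of 10 kb, described below, the number of positions at equal GC was near the middle, at percentile 49.3. Distances of 500 bp or more were 22 of 3237, or 0.68%, beside 1.31% at equal GC and 3.76% in the whole list. Each cluster was below its value at equal GC: 0.919% beside 1.45% in HOXA, 0.754% beside 1.29% in HOXB, 0.523% beside 1.07% in HOXC and 0.48% beside 1.49% in HOXD. In HOXB, the stretch from HOXB1 to HOXB9 held 1 such distance among its 645, and the spacer of 91190 bp toward HOXB13, which holds no HOX gene, held 8 of 477. That split was chosen after the values were seen.

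Set beside the neighbouring 200 kb on each side, every cluster had more positions per kb and a lower score percentile at equal GC. The density was 5.46 per kb in HOXA and 4.86 and 5.12 in its neighbours, 5.43 beside 5.22 and 5.30 in HOXB, 5.58 beside 5.30 and 4.96 in HOXC, and 5.30 beside 4.58 and 4.54 in HOXD. Among 833 autosomal regions of 150 kb that were over 2 points richer in GC than both neighbours, 76% were denser than both, so the greater density is near the background for such regions. For all 17253 regions the share was 30%. For the percentile, HOXA had 47.9 beside 52.1 and 56.6, HOXB 53.5 beside 59.8 and 59.3, HOXC 53.6 beside 64.4 and 57.2, and HOXD 48.9 beside 51.4 and 56.6. A region stood below both neighbours at equal GC in 28.5% of all regions and in 30% of the GC-rich ones, and in 4 of 4 HOX clusters. The order of these percentiles was the same in all 4 clusters at equal GC and CpG. Mean GC content at positions was 53.1% in HOXA beside 41.6% and 45.0%, and 50.6% in HOXB beside 42.6% and 47.5%. It was 52.7% in HOXC beside 44.5% and 49.8%, and 51.4% in HOXD beside 40.9% and 39.3%. The GC-rich regions were not matched to these differences.

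**Figure D5:**
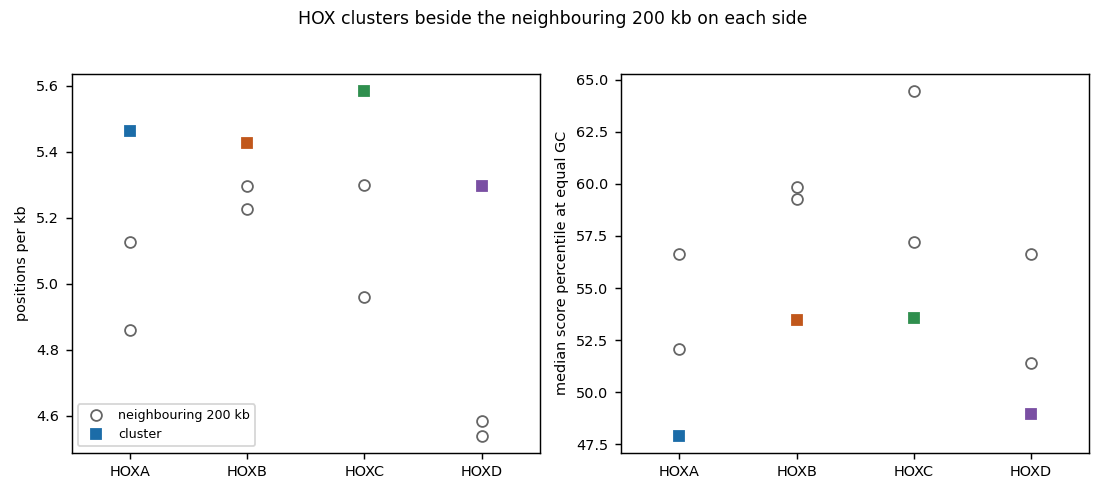
Positions per kb (left) and median score percentile at equal GC (right) in each HOX cluster (filled squares) and in the 200 kb on each side of it (open circles). Neither axis starts at 0. Every cluster lies above both neighbours for density and below both for the percentile.

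In fixed tiles of 10 kb, the 56 tiles inside the clusters had a median of 55 positions (range 45 to 61). Beside all 281082 tiles within 1 point of the same GC content, the median score of the HOX tiles stood at percentile 36.8 and their number of positions at percentile 49.3. HOXA and HOXD tiles had the lowest score percentiles, 25.6 and 30.6, beside 50.7 in HOXB and 52.8 in HOXC. HOX tiles are rich in CpG, with a median of 294.5 CpG per tile. Beside tiles that also had the number of CpG within 10%, the score percentile was 61.1 and the percentile of the number of positions 70.6. The low score of the tiles at equal GC was therefore not present at equal GC and CpG.

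CpG islands covered 33.2% of the bases of the clusters, from 26.1% in HOXB to 42.4% in HOXA, and held 1122 positions. Their median score was 19.7, beside 17.3 outside islands. At equal GC the order was the other way, with a percentile of 47.1 inside and 53.5 outside. This held in HOXB (48.0 beside 55.1), HOXC (48.6 beside 55.7) and HOXD (43.5 beside 52.1), and in HOXA the values were 48.4 inside and 46.9 outside. At equal GC and CpG the percentiles over all clusters were closer, 51.4 inside and 53.7 outside. Of the 3241 positions, 208 had their midpoint in coding sequence of a canonical HOX transcript, with a median percentile of 43.9. In UTRs there were 251 with 45.8, in introns 734 with 50.5, and outside these transcripts 2048 with 52.6. At equal GC and CpG these percentiles were 47.9 in coding sequence, 46.9 in UTRs, 54.1 in introns and 54.4 outside.

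The position with the highest score in HOXA, HOXC and HOXD is shown as reference sequence of the + strand, with CpG in capitals. The highest score of all clusters, 76.5 in HOXB, is not shown. None of the 3 overlapped an annotated untranslated region.
HOXA (score 51.8, chr7:27109332-27109471): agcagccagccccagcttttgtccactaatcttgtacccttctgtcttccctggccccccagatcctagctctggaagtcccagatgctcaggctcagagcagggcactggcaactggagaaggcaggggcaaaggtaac
HOXC (score 72.8, chr12:54018242-54018381): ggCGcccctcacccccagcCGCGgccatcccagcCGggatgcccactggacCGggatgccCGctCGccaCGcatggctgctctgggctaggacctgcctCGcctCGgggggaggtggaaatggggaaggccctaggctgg
HOXD (score 58.0, chr2:176145342-176145481): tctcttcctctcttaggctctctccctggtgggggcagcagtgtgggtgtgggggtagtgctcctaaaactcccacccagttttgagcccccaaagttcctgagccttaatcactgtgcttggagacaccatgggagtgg
The HOXC position held 10 CpG and lay outside canonical HOX transcripts, 9327 bp downstream of the HOXC8 start. It was within the full annotated spans of HOXC4 and HOXC6. The HOXA position, in an intron, and the HOXD position each held 0 CpG. The HOXD position was outside canonical HOX transcripts but within the full annotated span of HOXD3. All 3 were above 99.8% of the positions in their GC bin. HOXA had another position of 51.8, in the coding sequence of HOXA5 at 389 bp from its start.

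CTCF, a protein that binds insulators and marks boundaries of chromatin domains within HOX clusters, was looked for by its core consensus of 12 letters on both strands. The 4 clusters held 3 matches, or 5.04 per Mb, beside 3.74 per Mb in the genome. The match between HOXA7 and HOXA9 is shown, as the positions on either side of it had high scores.
Between HOXA7 and HOXA9 (chr7:27161138-27161149, − strand): CCAGCAGATGGC
The capitals mark the match. It lay in a gap of 290 bp between positions with scores of 37.0 and 49.4. The other matches were in the HOXB cluster, and 1 of them was covered by a called position. Over 10976 matches in the genome with a position on both sides, the median gap was 270 bp and 45.3% were covered. A match of letters is not a measured binding site.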

How the data were processed

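The authors digested hiPSC chromatin with MNase, mapped the reads to GRCh38, filtered out blacklisted regions and used the nucMACC workflow to call positions on pooled libraries. Trimmomatic 0.40 is named in the submitters' processing notes. The deposited score is a signal, a height of 0 or more per position whose scaling is not stated, and it was used without a filter or transformation. The authors' annotation was a later GENCODE release than the 44 used here.

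Midpoints were taken 70 bp after the first base of each 140-bp interval on chromosomes 1 to 22, X and Y. A gene's start was that of its Ensembl canonical transcript. Scores were ranked among positions of equal GC (147 bp), and genes among those of the same GC decile (1001 bp). CpG islands were called as 200 bp or more with 50% GC and an observed to expected CpG of 0.6. Genes given in detail were, by rule, those with the highest and lowest mean score in each cluster and the 3 widest and 3 narrowest gaps. The members and lists were chosen with earlier results of these data known. HOXD13, the scores that follow it and the top positions were picked after their values were seen. Sequences came from the hg38 reference. Calculations used Python 3.11.15, NumPy 2.4.6, pandas 2.3.3 and matplotlib 3.10.9 and were first tested on simulated positions. Alternatives were other positions, bounds, starts, windows, scalings and GC measures. Not every item is reported here.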

Additional observations from a re-analysis of the deposited data

How the results depend on the processing

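No paired analysis was possible because the table of positions used here has no values for single libraries. For 11 results, 75 alternative values were computed. Of these, 61 differed from the reported value by less than the SD over the 4 clusters or were equal to it, and 14 moved by more. Keeping only positions at or above the median score gave 3.72 positions per kb, a median score of 20.97, a neighbour distance of 210 bp, 9.40% long distances, 8.5 midpoints per start, a gap of 375 bp and a mean score percentile of 43.4 at the starts. The construction, with fewer positions and the low scores left out, accounts for the first 6 values, and the cause of the percentile was not tested. A window of 500 bp gave 6 midpoints and a percentile of 38.1, and the 5′-most start 11 midpoints. Dividing scores by the median of their chromosome gave percentiles of 44.03 for the clusters and 42.7 for the starts. The percentile of the clusters, reported as 51.2, thus changed sides of 50, as did that of the starts, reported as 53.8, under these 3 alternatives (38.1, 42.7 and 43.4). The cause was not tested. Leaving out each cluster gave median scores from 17.3 to 18.5 (the latter without HOXD) and from 11 to 12 midpoints (11 without HOXC).

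The list limits what can be said: it has 1 set of pooled calls, an unknown number of reads per score, no value per MNase concentration and no expression. Calls closer than 140 bp overlap, and how the caller placed them was not tested. The mappability of the clusters was not tested. Of the comparisons, the share of starts with a high downstream score turned with the choice of start (21.1% beside 36.7% at canonical starts, 39.5% beside 33.3% at 5′-most starts).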
